A study of Homo sapiens with 12 samples.

Results

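The 10 genes described here encode proteins that act in G2 and mitosis: the cyclins CCNA2 and CCNB1, the kinases CDK1, PLK1, AURKA and AURKB, the checkpoint proteins BUB1 and CDC20, and the chromosome proteins TOP2A and MKI67. They were chosen by Ensembl gene identifier from a table of 19580 genes, and all 10 were found and passed the filter on low values, which left 11510 genes to test. Ribosome footprints had been sequenced from wild-type HAP1, a near-haploid human cell line that derives from the leukaemia line KBM-7, in 3 biological replicates of each of 4 groups. One group was untreated, one received 4-thiouridine (4SU) at 5 uM for 18 h, one received UVA at 6 kJ per square metre with 30 min of recovery, and one received both (4SU+UVA). The labels do not say whether the groups without UVA were mock handled. 4SU is a uridine analogue that is built into new RNA and, under UVA, bonds covalently to nearby protein, so the combined treatment crosslinks RNA to protein. The 12 libraries held between 1899854 and 5832366 reads, the lowest being 4SU+UVA replicate 2.

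Cyclin A2 and cyclin B1 bind and activate CDK1, which phosphorylates the substrates that commit a cell to mitosis. The Aurora and Polo-like kinases then build the spindle and correct faulty chromosome attachments, BUB1 helps to hold anaphase back until all chromosomes are attached, and CDC20 activates the ubiquitin ligase that destroys cyclin B1 to end mitosis. Topoisomerase II alpha, made from TOP2A, untangles sister chromatids, and Ki-67, made from MKI67, coats mitotic chromosomes and is the standard marker of proliferating cells. Levels of most of these proteins rise in G2 and mitosis and drop afterwards, so in a culture out of step they reflect how many cells are in those phases as well as how much each cell makes. Fewer such cells and fewer footprints per cell cannot be told apart in these bulk libraries. A footprint level depends on how much mRNA there is and on how densely ribosomes occupy it, and the footprints alone do not separate them.

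All 10 genes were well covered in untreated cells. Levels are given as RPKM, in which reads are scaled by transcript length and by the library's total, so that they can be compared between genes. CCNB1 was highest at 442 ± 10.8 RPKM (SD, n = 3 untreated libraries), followed by PLK1 at 298 ± 3.58, CDC20 at 282 ± 5.87, TOP2A at 202 ± 5.25 and CDK1 at 180 ± 1.96 RPKM. CCNA2 at 169 ± 1.7 and AURKB at 169 ± 7.2 RPKM came next and overlapped each other, the only neighbours in this order whose untreated libraries did. BUB1 stood at 77.3 ± 2.84, AURKA at 67.7 ± 1.13 and MKI67 at 50.9 ± 2.5 RPKM. Even MKI67 lay at the 83.9th percentile of the 11510 tested genes, and CCNB1 at the 98.4th. The lengths behind RPKM cover whole transcripts, untranslated ends included, so a gene with long untranslated ends is shown lower than its coding density.

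**Figure D1:**
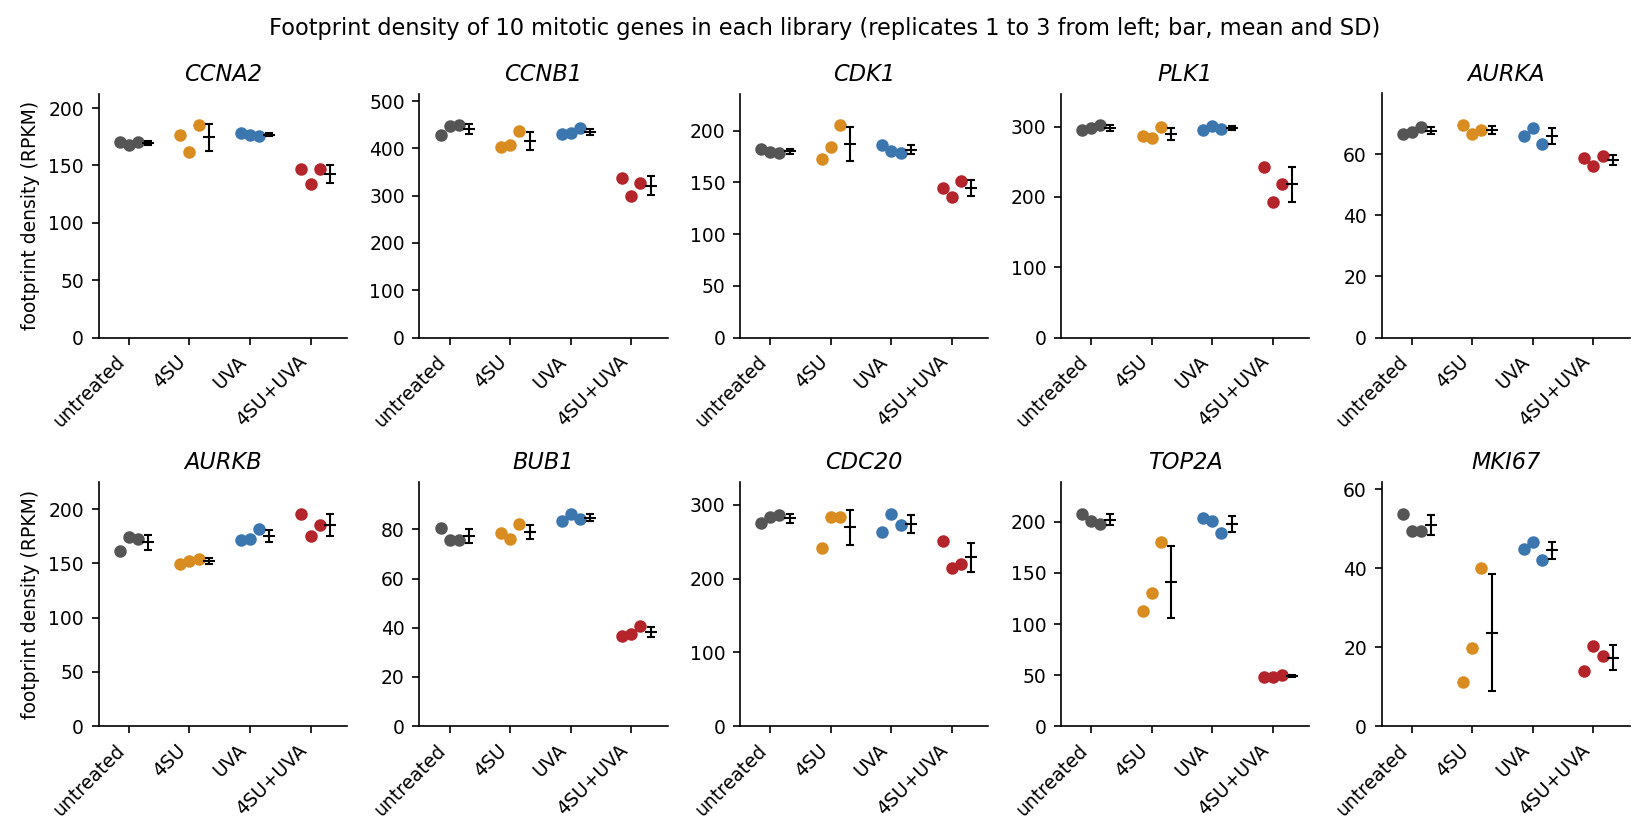
Footprint density in RPKM (vertical axes from 0) of each of the 10 genes in every library, with the 4 groups along the horizontal axis, replicates 1 to 3 as points from left to right and the group mean and SD (n = 3) as a black bar. TOP2A and BUB1 are low in all 3 4SU+UVA libraries, MKI67 is low there and scattered from 11.1 to 40.1 RPKM with 4SU alone, and AURKB is highest with 4SU+UVA.

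With 4SU+UVA the footprints of 9 of the 10 genes fell against untreated cells, and AURKB was the exception. At an adjusted p under 0.05 (limma on log2(RPKM + 0.5), Benjamini-Hochberg over all 11510 genes), 59% of all tested genes were called in this comparison, 18.4% lower and 40.6% higher. That split depends on the scaling: 4674 genes were higher and 2122 lower as deposited, 3107 and 2888 with each library centred on its median, and 3011 and 2910 after quantile normalisation. The falls were of very different size, from 1.16-fold for AURKA to 4.11-fold for TOP2A. The median change of the 10 genes was -0.39 on the log2 scale, where the median of all tested genes was 0.23 higher than in untreated cells. RPKM is relative to each library's own total, so each change is also set against that median, and all 10 genes lay below it. By definition as many tested genes lie below the median as above it. It is not a neutral mark for every gene. Among abundant genes, medians by transcript length ran from 0.28 for the shortest class to -0.80 for the longest. Libraries of both groups did not overlap at any of the 10 genes, which was the case for 63.7% of all tested genes. The mean transcript length per read moved with this comparison, at 3107 to 3134 nt in untreated libraries and 2753, 2828 and 2791 nt in 4SU+UVA replicates 1 to 3, and its part in the changes was not tested. Together the 10 genes took 0.513% to 0.517% of all reads in untreated libraries and 0.296% to 0.322% with 4SU+UVA.

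Among the cyclins and their kinase, all 3 genes fell, CCNB1 most and CCNA2 least. CCNA2 held 171, 168 and 170 RPKM in the 3 untreated libraries and 147, 134 and 147 with 4SU+UVA, and the groups were apart by more than their spread (log2 -0.25, SE 0.06, limma adjusted p = 0.0027). CCNB1, with 429, 447 and 449 RPKM untreated, fell to 337, 299 and 327 (log2 -0.46, SE 0.06, limma adjusted p = 7.7e-06). It remained the highest of the 10 genes in every group. CDK1, whose protein is the partner of both cyclins, fell from 182, 179 and 178 RPKM to 145, 136 and 152 (log2 -0.32, SE 0.07, limma adjusted p = 8e-04). In all 3 genes the shallowest library, 4SU+UVA replicate 2, gave the lowest value. Its counting error is larger, at 417 reads for CDK1 against 1291 in replicate 1. Replicate 2 was also the lowest 4SU+UVA library for PLK1, AURKA, AURKB and CDC20, but not for TOP2A, MKI67 and BUB1. For PLK1 the SD with 4SU+UVA was 11.3% of the mean, against a counting error of 2.69%. The cause of these low values was not tested.

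Of PLK1 and the Aurora kinases, PLK1 fell most and AURKB gave no call. PLK1, which matures centrosomes and switches on CDK1, held 295, 297 and 302 RPKM untreated and 242, 193 and 218 with 4SU+UVA, a 1.37-fold decrease (log2 -0.46, SE 0.07, limma adjusted p = 5.2e-05). AURKA, the spindle pole kinase, fell from 66.7, 67.4 and 68.9 RPKM to 58.6, 56.1 and 59.5 (log2 -0.22, SE 0.06, limma adjusted p = 0.0061). AURKB, the kinase of the chromosomal passenger complex at centromeres, held 161, 174 and 173 RPKM untreated and 196, 175 and 186 with 4SU+UVA. Its lowest 4SU+UVA library lay barely above its highest untreated one, and the change did not pass (log2 0.13, SE 0.06, 95% interval 0.01 to 0.26 before adjustment, limma adjusted p = 0.064). The direction depends on the scaling, since each library centred on its median gave -0.04 (adjusted p = 0.64). Without 4SU+UVA replicate 2 the change was 0.17 and passed (limma adjusted p = 0.024), and over all alternatives the adjusted p lay between 0.024 and 0.64.

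The checkpoint pair moved by unequal amounts. BUB1, a kinase that recruits checkpoint proteins to unattached kinetochores, held 80.5, 75.5 and 75.7 RPKM in untreated libraries and 36.8, 37.3 and 40.6 with 4SU+UVA, so the highest treated library lay far below the lowest untreated one. This was a 2.01-fold decrease (log2 -1.01, SE 0.06, limma adjusted p = 2e-08), the 336th lowest change among the 11510 genes. CDC20, the target that the checkpoint restrains, fell less, from 275, 283 and 287 RPKM to 251, 214 and 220 (log2 -0.30, SE 0.07, limma adjusted p = 0.0026).

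The chromosome proteins gave the largest falls. TOP2A held 208, 201 and 198 RPKM in the untreated libraries and 48.1, 48.2 and 50.2 with 4SU+UVA, a 4.11-fold decrease with a narrow spread in both groups (log2 -2.04, SE 0.12, limma adjusted p = 9.4e-09). Only 7 of the 11510 tested genes had a lower change. In counts that was 6566 reads in untreated replicate 3 against 1514 in 4SU+UVA replicate 1, libraries of 5832366 and 5526950 reads. TOP2A thereby moved from the fourth highest of the 10 genes to the eighth, below AURKA. MKI67 fell from 53.7, 49.5 and 49.4 RPKM to 13.8, 20.2 and 17.8, a 2.92-fold decrease (log2 -1.54, SE 0.29, limma adjusted p = 0.00045). Its larger error comes from the model's shared spread over all 4 groups, to which the scattered 4SU libraries contribute.

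**Figure D2:**
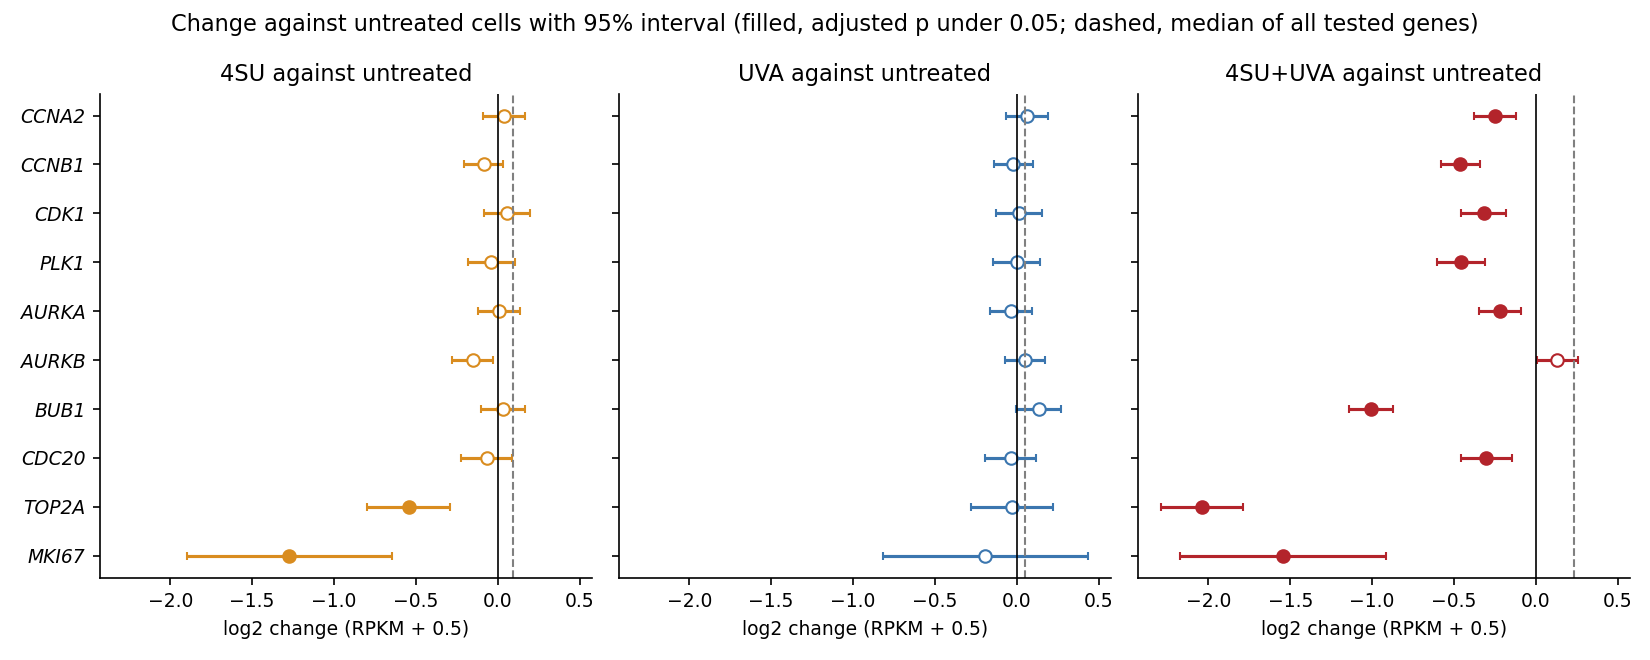
Log2 change of each gene against untreated cells (horizontal axis, log2(RPKM + 0.5)) with 4SU, with UVA and with both, with 95% intervals from the model over 12 libraries. Filled points passed an adjusted p of 0.05, and dashed lines mark the median change of all tested genes (0.09, 0.05 and 0.23); with UVA no point is filled, and with 4SU+UVA 9 of 10 are.

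Genes of this group share promoter elements in human cells: CCAAT boxes bound by NF-Y, and the cell cycle homology region (CHR) through which the DREAM and MuvB complexes hold them off in G1 and turn them on in G2. The upstream sequence is shown for TOP2A, MKI67, BUB1, CCNB1 and PLK1, which fell most with the combined treatment against untreated cells. Whether these elements had a part in the falls was not tested. Sequences are from RefSeq (GRCh38.p14), 5′ to 3′ on the gene's strand and ending at the base before the annotated start, with CCAAT (or its reverse complement ATTGG) and CHR letters (TTTGAA or TTCGAA, both strands) in capitals. They lie at chr17:40417897-40418146 (minus strand), chr10:128126424-128126543 (minus), chr2:110678064-110678183 (minus), chr5:69167030-69167149 (plus) and chr16:23678769-23678888 (plus).
TOP2A: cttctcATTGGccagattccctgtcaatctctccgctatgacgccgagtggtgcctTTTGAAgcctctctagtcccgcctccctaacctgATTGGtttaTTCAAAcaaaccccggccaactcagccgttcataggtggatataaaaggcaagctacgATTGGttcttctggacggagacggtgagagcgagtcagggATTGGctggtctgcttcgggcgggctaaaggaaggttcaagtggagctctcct
MKI67: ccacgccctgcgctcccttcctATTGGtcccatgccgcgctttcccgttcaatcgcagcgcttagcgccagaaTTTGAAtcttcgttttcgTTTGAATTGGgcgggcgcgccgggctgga
BUB1: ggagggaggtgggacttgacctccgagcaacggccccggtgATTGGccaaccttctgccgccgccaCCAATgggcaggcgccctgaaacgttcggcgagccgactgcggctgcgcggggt
CCNB1: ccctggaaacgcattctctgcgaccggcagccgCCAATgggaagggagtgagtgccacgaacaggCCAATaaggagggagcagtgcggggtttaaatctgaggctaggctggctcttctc
PLK1: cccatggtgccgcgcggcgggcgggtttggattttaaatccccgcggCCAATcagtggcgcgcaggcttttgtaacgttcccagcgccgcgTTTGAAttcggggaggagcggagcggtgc

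TOP2A held 4 CCAAT and 2 CHR matches within these 250 bases, and MKI67 had 2 of each, of which one pair shares a base so that its capitals run together. BUB1 and CCNB1 each held 2 CCAAT matches and neither TTTGAA nor TTCGAA in the 250 bases searched. The table had upstream sequence for 9 of the 10 genes, with AURKA missing. CCAAT was found in all 9 and the searched CHR letters in 5 of them (CDK1, TOP2A, MKI67, PLK1 and CDC20). Of the 35116 upstream sequences in the table, 32% and 14.3% held them. Other forms of the CHR were not searched, so a gene without a match may still hold one. AURKB held 1 CCAAT match, 129 bases before a start that lies 326 nt inside the annotated gene. These matches describe letters only, and no binding was measured.

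4SU alone lowered 2 of the 10 genes, both of them chromosome proteins and also the 2 longest transcripts, and left the other 8 without a call. Among all tested genes, 14.4% were called with 4SU against untreated, 3.12% lower and 11.3% higher (limma adjusted p under 0.05). Here too the split depends on the scaling, with 1295 higher and 359 lower as deposited, 640 and 1080 under median centring, and 678 and 497 after quantile normalisation. MKI67 held 11.1, 19.8 and 40.1 RPKM in the 3 4SU libraries, against 49.4 to 53.7 untreated (log2 -1.27, SE 0.29, limma adjusted p = 0.012). The fitted change was the third lowest of 11510 genes, yet the libraries spread over more than the distance from the highest of them to the untreated mean, with an SD of 62.8% of the mean where counting alone gives 3.26%. Without 4SU replicate 1 the change was -0.84 (limma adjusted p = 0.037), and without replicate 3 it was -1.74 (limma adjusted p = 0.00017). TOP2A followed in the same order of libraries, with 113, 130 and 181 RPKM (log2 -0.54, SE 0.12, limma adjusted p = 0.0086), an SD of 24.9% against a counting error of 1.73%. It changed by -0.40 without replicate 1 and by -0.74 without replicate 3, and both passed.

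The other 8 genes spread far less within the 4SU group, with SDs of 1.56% to 8.92% of their means. PLK1 at 287, 283 and 300 RPKM, AURKA at 69.4, 66.7 and 67.8 and BUB1 at 78.5, 76.2 and 82.1 stayed close to their untreated values in all 3 4SU libraries. AURKB was lower in every 4SU library, at 150, 152 and 154 RPKM against 161 to 174 untreated, a change that did not pass (log2 -0.15, SE 0.06, limma adjusted p = 0.092) unless libraries were centred on their median (-0.28, adjusted p = 0.014). With that centring CCNB1 also passed (-0.21, adjusted p = 0.039), so that 4 genes in place of 2 were lower. Libraries of both groups did not overlap at 3 of the 10 genes (TOP2A, MKI67 and AURKB), where 35.3% of all tested genes had no overlap. The mean transcript length per read moved with the spread, at 3036, 3064 and 3099 nt in 4SU replicates 1 to 3 against 3107 to 3134 nt untreated. Its part in the values of TOP2A and MKI67 was not tested.

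UVA alone called none of the 10 genes (limma), and none had an unadjusted p under 0.05 either. voom on recovered reads also called 0. In the same comparison 0.652% of all tested genes were called, 0.374% lower and 0.278% higher (43 and 32 genes, against 48 and 19 under median centring and 20 and 22 after quantile normalisation). The changes ran from -0.19 for MKI67, whose 95% interval of -0.82 to 0.44 is wide, to 0.13 for BUB1 (interval -0.0024 to 0.27). BUB1 held 83.6, 86.4 and 84.4 RPKM with UVA, all above its 3 untreated libraries (limma adjusted p = 0.60). CCNA2 at 178, 177 and 175 RPKM was likewise above, and MKI67 at 44.8, 46.5 and 42.1 below, so 3 of 10 genes had no overlap, against 16.8% of all tested genes. For CCNB1, CDK1 and PLK1 the intervals were -0.14 to 0.10, -0.13 to 0.15 and -0.15 to 0.14.

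Light in cells that carried 4SU lowered 8 genes and raised 1, where 44% of all tested genes were called, 19% lower and 25% higher. That split depends on the scaling, with 2877 genes higher and 2185 lower as deposited. Median centring gave 2499 higher and 2443 lower, and quantile normalisation 2360 and 2599. The libraries of both groups did not overlap at 8 of the 10 genes, against 51% of all tested genes. BUB1, from 78.5, 76.2 and 82.1 RPKM to 36.8, 37.3 and 40.6, fell 2.05-fold (log2 -1.04, SE 0.06, limma adjusted p = 3.1e-08). TOP2A fell 2.82-fold (log2 -1.50, SE 0.12, limma adjusted p = 3.3e-07). AURKB rose 1.22-fold, from 150, 152 and 154 RPKM with 4SU to 196, 175 and 186 with both (log2 0.28, SE 0.06, limma adjusted p = 0.0012), and centring on the median kept this call. Of 979 short abundant genes, the class of AURKB, 500 were higher and 103 lower in this comparison, with a median of 0.22. In the longest class, which holds TOP2A, 9 of 112 were higher and 91 lower, with a median of -0.71. The part of length was not tested. MKI67 did not pass (log2 -0.27, 95% interval -0.90 to 0.36, limma adjusted p = 0.48), and 1 of its 4SU libraries, at 11.1 RPKM, lay below all 3 4SU+UVA ones. Its value moved to -0.71 with a call without 4SU replicate 1 (adjusted p = 0.018) and to 0.20 without replicate 3. CDC20 was lower with an adjusted p of 0.017 (log2 -0.24), but its groups overlapped and the call was lost without 4SU replicates 2 or 3 or without 4SU+UVA replicates 2 or 3 (adjusted p = 0.059 to 0.073).

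4SU in irradiated cells, that is 4SU+UVA against UVA alone, lowered 9 genes, where 54.4% of all tested genes were called, 19.8% lower and 34.7% higher (2278 and 3989 genes, against 2683 and 3138 under median centring and 2820 and 2900 after quantile normalisation). There was no overlap at 9 genes, against 59.4% of all tested genes. TOP2A went from 204, 201 and 189 RPKM to 48.1, 48.2 and 50.2 (log2 -2.01, SE 0.12), BUB1 fell 2.20-fold (log2 -1.14, SE 0.06) and MKI67 2.55-fold (log2 -1.35, SE 0.29), with limma adjusted p of 7.6e-09, 4.8e-09 and 0.0014. AURKB was at 0.08 (limma adjusted p = 0.24). Abundant genes of like length had medians of -0.82 for TOP2A, -0.55 for BUB1 and 0.25 for AURKB. The part of length was not tested. AURKA passed narrowly (log2 -0.18, SE 0.06, limma adjusted p = 0.02), and that call was lost without UVA replicate 2 or 4SU+UVA replicate 2 (adjusted p = 0.083 and 0.054). The 3 comparisons with 4SU+UVA share its libraries, so their agreement is not independent.

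An interaction term asked whether the combined change departs from the single changes added together. It passed below 0 for 6 genes and above 0 for 1, where 24.8% of all tested genes passed, 14.1% below and 10.7% above 0. That split also depends on the scaling, with 1624 genes below and 1233 above 0 as deposited. Median centring gave 1409 below and 1435 above, and quantile normalisation 1648 and 1288. The term moved with transcript length as well, with medians among abundant genes from 0.18 for the shortest class to -0.67 for the longest. In the longest class, which holds TOP2A, 85 of 112 genes passed below 0 and 5 above. In BUB1's class it was 166 and 15 of 248, and in AURKB's, the shortest, 63 and 325 of 979. The part of length in this term was not tested. BUB1 showed a departure plainly: its single changes summed to 0.16 and the combined change was -1.01. This was an interaction of -1.17 (SE 0.09, limma adjusted p = 6.3e-07). TOP2A, with a sum of -0.57 and a combined change of -2.04, had the largest at -1.47 (SE 0.17, limma adjusted p = 2.7e-05). PLK1 at -0.42, CDK1 at -0.39, CCNB1 at -0.35 and CCNA2 at -0.35 passed with adjusted p from 0.0043 to 0.0082 (limma). AURKB, at 0.24 (SE 0.08), passed at an adjusted p of 0.049, a call lost when any of 9 of the 12 libraries was left out (0.057 to 0.12). MKI67 gave no such departure: the sum of its single changes, -1.46, was close to its combined change of -1.54, and the interaction of -0.08 had a 95% interval of -0.97 to 0.81 (limma adjusted p = 0.91). That interval does not show that the effects add. AURKA (-0.19) and CDC20 (-0.20) did not pass.

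**Figure D3:**
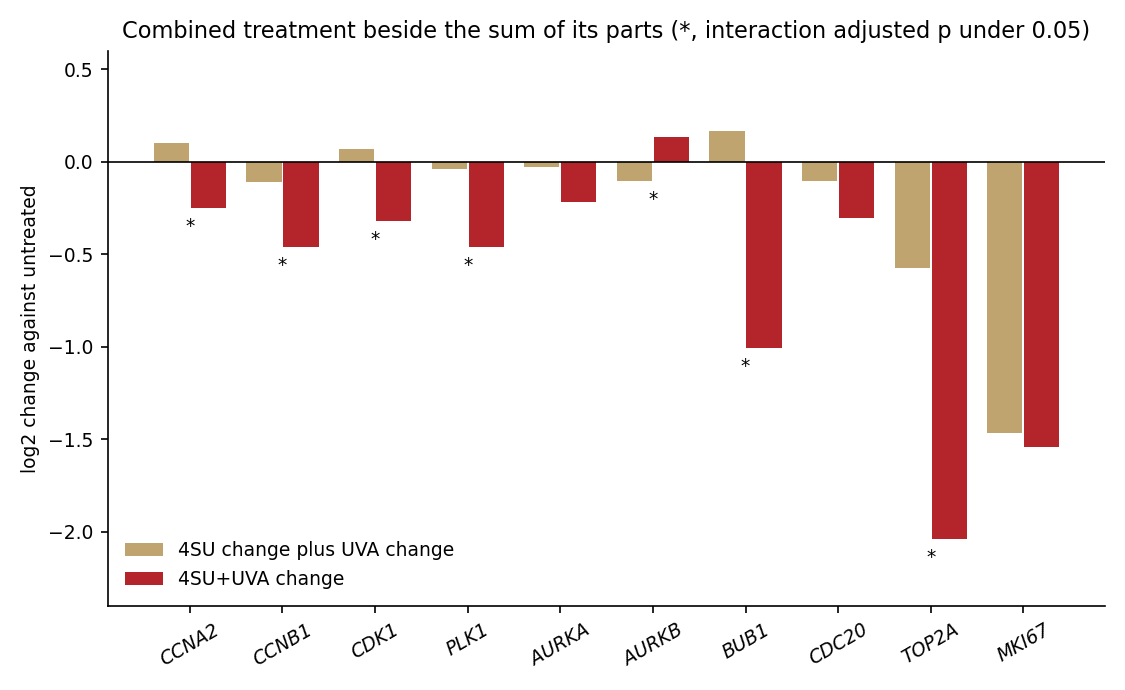
Log2 change against untreated (vertical axis) with 4SU+UVA in red beside the sum of the single 4SU and UVA changes in tan, for each of the 10 genes; asterisks mark an interaction with adjusted p under 0.05. The bars of BUB1 (0.16 and -1.01) and TOP2A (-0.57 and -2.04) are far apart, and those of MKI67 (-1.46 and -1.54) are nearly level.

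Ratios between 2 genes of a library do not depend on the library's total, and they showed which partners changed unequally. A shift that goes with transcript length does not cancel in them. AURKB has 1254 nt and AURKA 2223 nt, TOP2A 5695 and CCNB1 2029, and BUB1 3287 and CDC20 1777. MKI67 has 11417 nt, CCNA2 2748 and CDK1 1613. With 4SU+UVA against untreated, abundant genes of like length changed by a median of 0.28 for AURKB and -0.20 for AURKA. The part of length in these ratios was not tested. These pairs were picked with the values known and are given without a test. AURKB over AURKA, the 2 Aurora paralogues, was 2.50 ± 0.084 in untreated cells, 2.24 ± 0.0716 with 4SU, 2.66 ± 0.18 with UVA and 3.19 ± 0.127 with 4SU+UVA (SD, n = 3 each). Its 4SU libraries all lay below and its 4SU+UVA libraries all above the untreated ones. CCNA2 over CDK1 stayed between 0.876 and 1.02 in all 12 libraries, with the 4SU+UVA libraries, at 0.968 to 1.02, just above the untreated ones. CCNB1 over CDK1 was 2.46 ± 0.0864 untreated, 2.23 ± 0.103 with 4SU and 2.23 ± 0.0905 with 4SU+UVA. TOP2A over CCNB1 went from 0.458 ± 0.0232 untreated to 0.338 ± 0.0684 with 4SU and 0.152 ± 0.00934 with 4SU+UVA. BUB1 over CDC20 went from 0.275 ± 0.0158 to 0.168 ± 0.0196 with 4SU+UVA, and was 0.309 ± 0.00856 with UVA. MKI67 over TOP2A was 0.251 ± 0.00638 untreated, 0.158 ± 0.0618 with 4SU, 0.224 ± 0.00607 with UVA and 0.354 ± 0.0663 with 4SU+UVA. Its libraries lay below all untreated ones with either single treatment and above them with the combination.

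**Figure D4:**
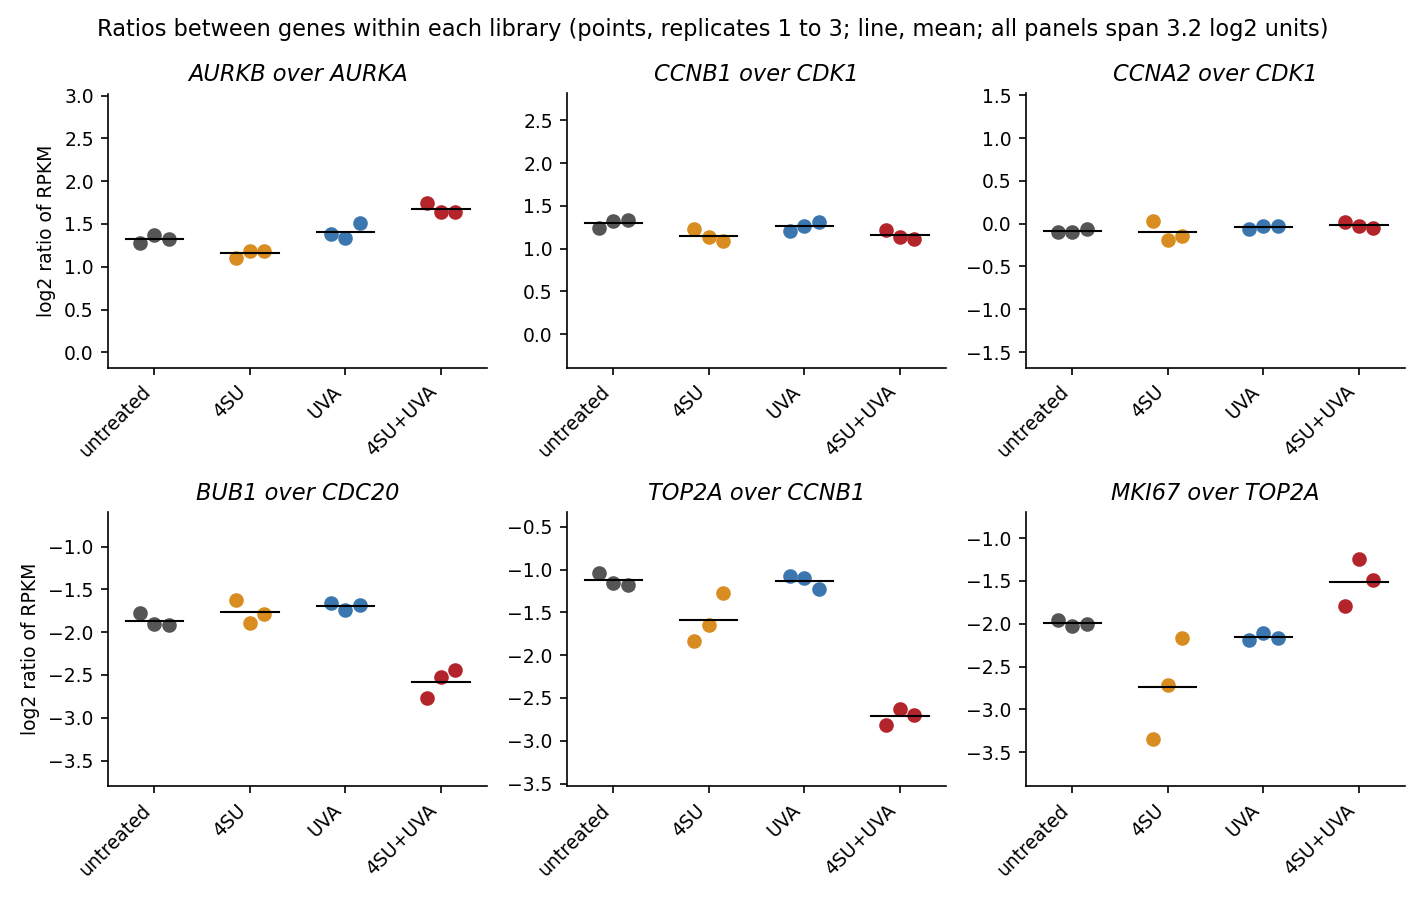
Log2 ratio of RPKM between 2 genes in each library (vertical axes, each spanning 3.2 log2 units) for 6 pairs, with the 4 groups along the horizontal axis, replicates 1 to 3 as points from left to right and the group mean as a line. AURKB over AURKA is highest and BUB1 over CDC20 and TOP2A over CCNB1 lowest with 4SU+UVA, while CCNA2 over CDK1 stays near 0.

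Over the 12 libraries, 9 of the genes had a partner among the 10 at r of 0.807 or more, and AURKB did not. The gene most like each was found by Pearson correlation of log2(RPKM + 0.5) among the 10, a description in which libraries of 4 groups are mixed. PLK1 and CCNB1 were closest (r = 0.98), TOP2A was nearest to CCNB1 (r = 0.969), BUB1 to TOP2A (r = 0.956) and CDK1 to CCNA2 (r = 0.928). MKI67 was most like TOP2A at r = 0.807. AURKB had no positive partner, with r from -0.659 against AURKA to -0.007 against MKI67.

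Transcript length moved with the size of the fall, and mean transcript length per read was shorter in the 4SU+UVA libraries (2753 to 2828 nt) than in the untreated ones (3107 to 3134 nt). The 2 longest transcripts, MKI67 with 11417 nt and TOP2A with 5695 nt, fell most, BUB1 with 3287 nt came next, and AURKB had the shortest at 1254 nt. The log2 change with 4SU+UVA correlated with log2 length at r = -0.87 (Spearman rho = -0.67) over the 10 genes, which are not independent replicates. Tested genes were divided into 5 classes by length and, separately, 5 by abundance. In the top abundance class, 92 of the 112 in the longest length class (4694 to 14731 nt) fell and 11 rose, with a median of -0.80. TOP2A belongs to them and at -2.04 was the fourth lowest of them. BUB1, at -1.01, was the 52nd lowest of 248 genes in the length class of 3142 to 4664 nt, with a median of -0.54. MKI67 belongs to the next abundance class, where it was 12th lowest of 287 long genes (median -0.52), and with 4SU alone it was the lowest of those 287 (median -0.06). CCNB1, PLK1, CDK1 and CDC20, of 1613 to 2160 nt, were 81st, 83rd, 132nd and 136th lowest of 565 abundant genes of like length, whose median was 0.01. AURKA and CCNA2 lay close to the median of their 398 genes, 0.01 and 0.05 below it. AURKB, at 0.13, was 0.15 below the median of 979 short abundant genes. The part of length in these changes was not tested.

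**Figure D5:**
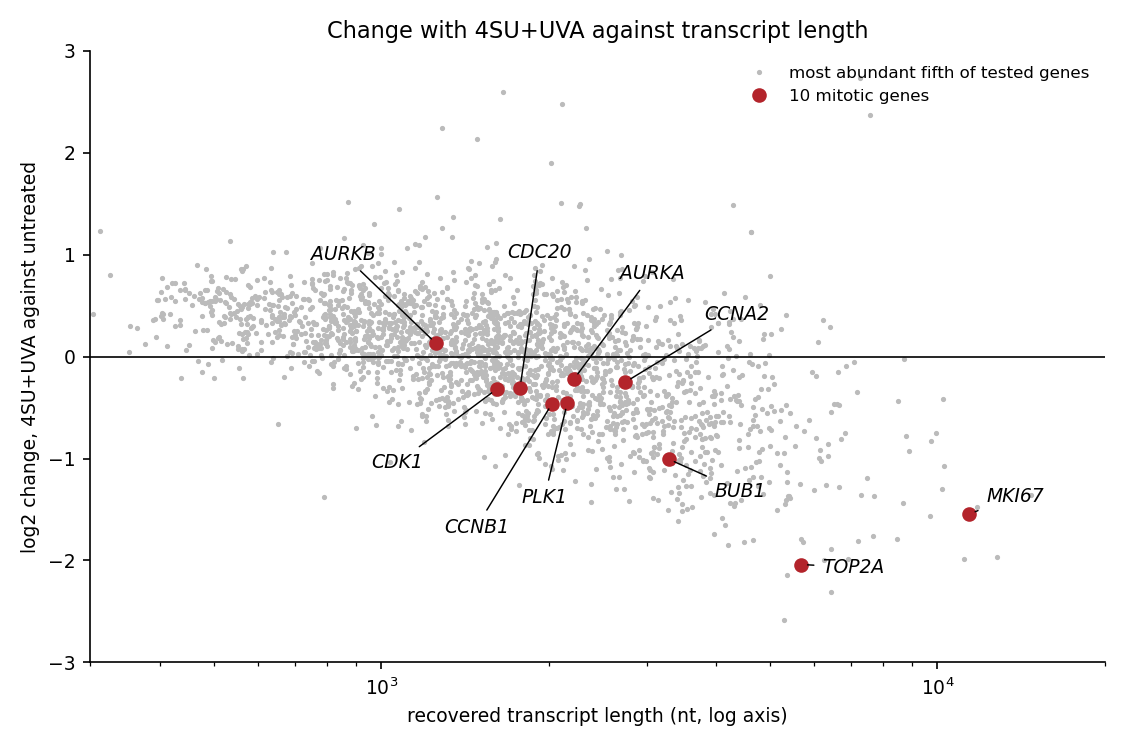
Log2 change with 4SU+UVA against untreated (vertical axis) by recovered transcript length in nt (horizontal log axis) for the 10 genes in red and the top of 5 abundance classes in grey, of which 2289 of 2302 fall within the axes. The 10 genes run from AURKB at 1254 nt and 0.13 down to TOP2A at 5695 nt and -2.04; MKI67, at 11417 nt, belongs to the next abundance class.

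The deposited identifiers are those of Ensembl, and the reference at hand paired 0 of them with a symbol. Lists of further mitotic genes (APC/C, kinetochore, spindle motor, condensin and G1 cyclin genes) and markers of the cell line were therefore not analysed here, and no statement on mitotic genes beyond these 10 can be made. By RefSeq (GRCh38.p14) the most affected genes lie at chr17:40388525-40417896 (TOP2A, minus strand), chr10:128096659-128126423 (MKI67, minus strand) and chr2:110637528-110678063 (BUB1, minus strand), and AURKB at chr17:8204731-8210575 (minus strand). In the deposited table they are ENSG00000131747.15, ENSG00000148773.14, ENSG00000169679.15 and ENSG00000178999.13. The other 6 are CCNA2 (chr4:121816444-121823883), CCNB1 (chr5:69167150-69178245), CDK1 (chr10:60778331-60794852), PLK1 (chr16:23678889-23690367), AURKA (chr20:56369390-56392215) and CDC20 (chr1:43358981-43363203).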

How the data were processed

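Footprint libraries of 12 HAP1 cultures, 3 per group, were grouped by the treatment and replicate in their titles, and the series' design text calls them biological replicates. The authors deposited 1 table of RPKM values; the aligner was STAR 2.7.10a and the build hg38, per the submitters' processing notes. Not given in the sources used here are the counter, the annotation version, the strand setting and how reads with several matches were treated.

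RPKM values move in steps worth 1 read, from which the reads, transcript length and library totals were recovered for all 15937 genes with a read, to within 0.001 reads. Changes were tested with limma (version 3.58.1, under R 4.3.3; lmFit, then eBayes with its trend option) on log2(RPKM + 0.5). A gene entered if 3 or more libraries reached 1 RPKM, which 11510 genes did. One model of 4 group means over 12 libraries (8 residual degrees of freedom) gave 6 two-sided contrasts with Benjamini-Hochberg adjustment. The script was tested on simulated data. Fold changes are on the log2(RPKM + 0.5) scale. Length and abundance classes each divide the tested genes into 5. Alternatives were the pseudocount, filter, scaling, variance trend, replicate block, groups in the fit, voom on recovered reads and each library left out. The members, the lists and the tests were chosen with earlier results of these data known. By the rule for named genes all 10 members are named; lists of other mitotic genes could not be matched to identifiers.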

Additional observations from a re-analysis of the deposited data

Results flagged for a closer look

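For 7 of the 10 genes the effect of UVA differed between cells with and without 4SU by the test of that difference (limma interaction, adjusted p under 0.05), where 24.8% of all tested genes passed. It was -1.47 on the log2 scale for TOP2A and -1.17 for BUB1, the genes with the clearest departure from the sum of the single effects. PLK1 stood at -0.42, CDK1 at -0.39, CCNB1 at -0.35 (-0.353) and CCNA2 at -0.35 (-0.350). AURKB was the exception in sign, at 0.24, with an adjusted p of 0.049 that did not hold in most of the leave-one-out fits. For this term, abundant genes of like length had medians of 0.18 for AURKB, -0.67 for TOP2A and -0.49 for BUB1. The part of length was not tested. No group held the 4 samples that a search for outlying libraries needs.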

How the results depend on the processing

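Of 1250 recomputed values of single genes, 1199 kept direction and call, 22 lost and 5 gained a call, and 24 turned in sign, all 24 of them without a call as reported or as recomputed. The number of the 10 genes called changed by over 1.5 times in 1 setting: median centring gave 4 with 4SU against untreated in place of 2. Leaving out 1 library gave 9 to 10 genes for 4SU+UVA against untreated, 2 to 2 for 4SU, 0 to 0 for UVA, 8 to 10 for 4SU+UVA against 4SU, 8 to 9 against UVA and 6 to 7 for the interaction. Over all tested genes, UVA called 75, which became 45 with no filter, 42 with quantile normalisation and 27 with no variance trend (52 to 81 with a library left out). 4SU called 1654, and with a library left out 726 (without 4SU replicate 1) to 2050 (without 4SU replicate 3), with 772 without 4SU replicate 2 and 872 and 869 without untreated replicates 2 and 3; voom on recovered reads called 2345. Median centring turned AURKB to -0.0398 in 4SU+UVA against untreated, to -0.0073 against UVA and to -0.0324 in UVA against untreated. In 4SU against untreated it turned CCNA2 to -0.0866, CDK1 to -0.0697, AURKA to -0.12 and BUB1 to -0.10, and in UVA against untreated CCNA2 to -0.0206 and CDK1 to -0.0671. Quantile normalisation turned PLK1 to 0.0073 and AURKA to -0.0278 with 4SU, and CDK1 to -0.0134 with UVA. With a library left out, values with 4SU ran from -0.004 to 0.0923 for CCNA2, -0.0102 to 0.11 for CDK1, -0.0087 to 0.0199 for AURKA and -0.11 to 0.0092 for CDC20. With UVA they ran from -0.0035 to 0.0263 for CDK1, -0.0525 to 0.0037 for TOP2A and -0.0095 to 0.0076 for PLK1. MKI67 ran from -0.71 to 0.20 for 4SU+UVA against 4SU and from -0.51 to 0.39 for the interaction; the cause of these changes was not tested beyond the library left out. Calls were lost for CDC20 in 4SU+UVA against 4SU without the variance trend (adjusted p = 0.054) or with only these groups fitted (0.055), for AURKA in 4SU+UVA against UVA with quantile normalisation (0.06) or only these groups (0.055), and for AURKB's interaction with quantile normalisation (0.051) or without the trend (0.12). The replicate block changed no call of a single gene but AURKB's interaction (adjusted p = 0.065) and gave 6 genes there in place of 7. Over all tested genes, samples of the same number did not deviate together (r from -0.05 to 0.07 over 18 pairs). Samples of different numbers gave r from -0.07 to 0.06. Counting noise can hide a shared batch here, so pairing is not excluded. Counting error limits the shallowest library most, at 233 reads for BUB1.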
